A study of Mus musculus with 4 samples.

Results

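The Id genes Id1, Id2, Id3 and Id4 and the E protein genes Tcf3, Tcf4 and Tcf12 are 7 of the 50600 genes counted in RNA-seq libraries of mouse regulatory T cells. The 7 were taken by gene symbol, by a rule that used no level, with earlier results of these data known. The samples formed 1 group of 4 libraries from strain C57BL/6NJ, labelled as biological replicates 1 to 4 of primary regulatory T cells, with no second genotype, treatment or time and no transgene named. The labels link a differentiation protocol for CD4 T cells, and sample names inside the files carry the words activated and 72 h. Sex was not collected and age is unknown. The labels give 1 donor identifier for all 4 libraries and do not say that the cultures came from separate animals, so any p-value measures only the spread between these libraries. Members were therefore compared with each other within libraries, and each member was compared between libraries.

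E proteins are transcription factors with a basic region followed by a helix-loop-helix. They pair with each other or with related factors and bind a short DNA word called the E-box. Id proteins have the helix-loop-helix without the basic region, so a pair of an Id and an E protein forms but does not bind DNA. In the T cell lineage, the products of Tcf3 (E2A) and Tcf12 (HEB) direct thymocyte development, and Id2 and Id3 are known for restraining them in mature T cells, regulatory T cells included.

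The libraries held 51460018 to 121477975 counts on genes. Of markers of the labelled cell type, 4 of 4 were at 1 TPM or more in every library, as were 48.9% of protein-coding genes. Il2ra was at 2168 ± 242 TPM, Ctla4 at 546 ± 94.8 TPM, Foxp3 at 448 ± 27.8 TPM and Ikzf2 at 16.4 ± 3.61 TPM (SD, n = 4). With 1 group, the markers could not be compared with those of other T cells. TPM, the usual length-corrected measure of transcript abundance, is a gene's count per base of its length, as a part of the sum of such values over a library's genes. The T cell list had 3 of 3 markers at that level. Of markers of other cells, 1 of 2 CD8 T cell markers, 0 of 5 B cell markers, 0 of 3 stromal markers, 1 of 4 myeloid markers and 2 of 4 natural killer and innate lymphoid markers reached 1 TPM in every library. The summed levels of these lists were 8.70 to 13.4, 0.948 to 1.59, 0.247 to 0.495, 1.77 to 3.41 and 4.98 to 5.56 TPM. Ncr1, Lyz2 and Col3a1 had 0 counts. The markers that reached 1 TPM were Cd8b1 (mean 11.5 TPM), Eomes (3.34 TPM), Adgre1 (2.55 TPM) and Klrd1 (1.84 TPM). The part of other cells in the levels below was not tested. The X-inactivation RNA Xist was at 173 and 199 TPM in replicates 1 and 2, and at 0.592 and 0.758 TPM in replicates 3 and 4. The spread between libraries thus includes 2 libraries high and 2 low in Xist, which the single donor identifier does not reflect. Replicate 2 stood apart in base composition. Across 10640 protein-coding genes its deviation from the mean of the 4 libraries had a Spearman correlation of -0.56 with GC content, against 0.19 to 0.44 in the others. The GC content was that of each gene's longest coding transcript. Deviations from a shared mean are linked, so a negative correlation in 1 library raises those of the others. This is a description across genes, which are not independent replicates.

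Among the Id genes, Id1 was the most abundant, Id3 and Id2 followed close to each other, and Id4 was not detected. Id1 is a general inhibitor best known from dividing progenitor cells and a classic target of bone morphogenetic protein signals. Id1 (ENSMUSG00000042745.9, mm10 chromosome 2, 152736251 to 152737410, plus strand) had 130.1, 91.8, 147 and 115 TPM in replicates 1 to 4. Replicate 3 was highest and replicate 2 lowest, a ratio of 1.61, and the mean was 121 ± 23.7 TPM (SD, n = 4). These levels rest on 1924 to 5396 counts per library, so that counting error alone was 1.36% to 2.28%.

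Id3, which antigen receptor signals induce in T cells, lies on chromosome 4 (ENSMUSG00000007872.3, 136143497 to 136145755, plus strand). Its levels were 62.0, 42.9, 52.9 and 49.7 TPM in replicates 1 to 4, with a mean of 51.9 ± 7.94 TPM (SD, n = 4). Replicate 1 was highest and replicate 2 lowest. Id2, which is also needed by innate lymphoid and natural killer cells, lies on chromosome 12 (ENSMUSG00000020644.8, 25093801 to 25096092, minus strand). Its levels of 44.9, 41.0, 51.0 and 41.8 TPM in replicates 1 to 4 gave a mean of 44.7 ± 4.53 TPM (SD, n = 4). Replicate 3 was highest, replicate 2 was lowest again, and the ranges of Id3 and Id2 overlapped.

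Id4, best known from neural and mammary development, lies on chromosome 13 (ENSMUSG00000021379.1, 48261427 to 48264036, plus strand). It had 0 counts in each of the 4 libraries. A floor of 3 counts, the limit that a count of 0 allows, corresponded to 0.0506, 0.10, 0.0820 and 0.120 TPM in replicates 1 to 4, and covers counting error only. The antisense gene that overlaps it also had 0 counts. The counted exons of Id4 total 1660 bases, against 3849 in its only coding transcript in GENCODE M21, a later annotation release. Reads outside the counted exons were not seen. Against the floor of each library, Id1 was at least 918-fold higher, Id3 at least 415-fold higher and Id2 at least 349-fold higher.

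Among the E protein genes, Tcf3 carried most of the signal, Tcf12 a smaller part and Tcf4 very little. Tcf3 (ENSMUSG00000020167.14, chromosome 10, 80409514 to 80433647, minus strand) makes the splice forms E12 and E47, which gene counts cannot tell apart. It had 229.9, 190.5, 202 and 217 TPM in replicates 1 to 4, a mean of 209.9 ± 17.3 TPM (SD, n = 4). Replicate 1 was highest, replicate 2 was lowest, and the ratio between them was 1.21. With 96.1% of protein-coding genes lower in mean TPM, Tcf3 ranked above Id1 (92.2%), Id3 (82.4%) and Id2 (80.2%).

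Tcf12 (ENSMUSG00000032228.16, chromosome 9, 71842688 to 72111871, minus strand) had 21.4, 23.0, 20.8 and 21.8 TPM in replicates 1 to 4. The mean was 21.7 ± 0.910 TPM (SD, n = 4), and the libraries differed by a ratio of 1.10 at most, with replicate 2 highest. The gene spans 11 other annotated genes, 7 of them on the same strand. These held 152 counts in all, against 30554 for Tcf12. How reads in exons shared with these genes were counted was not examined, so their low counts do not show that Tcf12 lost no reads.

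Tcf4 (ENSMUSG00000053477.16, chromosome 18, 69343356 to 69689079, plus strand) is the E protein gene that defines plasmacytoid dendritic cells. It had 1.39, 1.83, 1.27 and 1.65 TPM in replicates 1 to 4, a mean of 1.54 ± 0.251 TPM (SD, n = 4), from 683 to 1364 counts per library. Replicate 2 was highest and replicate 3 lowest. Of 5 markers of plasmacytoid dendritic cells, Siglech and Klk1 had 0 counts and Ly6d had 1 count in all. The other two were Spib at 8.47 ± 1.43 TPM and Irf8, a factor also made in T cells, at 795 ± 39.04 TPM (SD, n = 4), and the summed level of the list was 749.5 to 840.3 TPM, nearly all of it Irf8. In bulk libraries, a low level in all cells and a higher level in a few cells cannot be told apart.

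**Figure D1:**
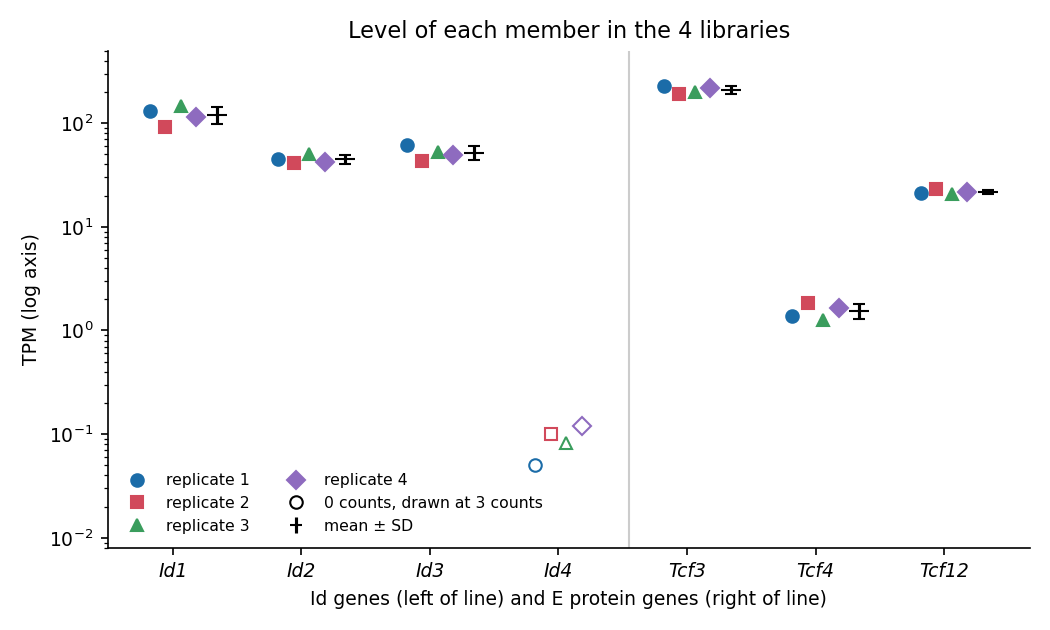
TPM on a log axis for the 4 Id genes (left of the line) and the 3 E protein genes (right of the line), with 1 symbol per library and the mean ± SD in black. Tcf3 lies highest at 190.5 to 229.9 TPM, Id1 next at 91.8 to 147 TPM, and Id4 had 0 counts, drawn as open symbols at the level of 3 counts.

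Upstream sequences are shown for a gene of the network with no counts, Id4, beside the expressed Id2, Tcf3 and Tcf12. Each is read 5′ to 3′ on the strand of the gene, up to its start in RefSeq (GRCm38.p6, the mm10 assembly) or in the files, whichever lies further upstream. Capitals mark the E-box, the word CANNTG to which E proteins bind.
Id2 chr12:25096093-25096342, minus strand: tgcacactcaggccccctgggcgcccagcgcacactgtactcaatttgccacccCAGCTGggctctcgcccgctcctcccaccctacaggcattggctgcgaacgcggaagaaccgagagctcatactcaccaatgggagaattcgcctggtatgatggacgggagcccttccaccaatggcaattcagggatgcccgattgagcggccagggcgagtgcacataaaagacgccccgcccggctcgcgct
Id4 chr13:48260866-48261115, plus strand: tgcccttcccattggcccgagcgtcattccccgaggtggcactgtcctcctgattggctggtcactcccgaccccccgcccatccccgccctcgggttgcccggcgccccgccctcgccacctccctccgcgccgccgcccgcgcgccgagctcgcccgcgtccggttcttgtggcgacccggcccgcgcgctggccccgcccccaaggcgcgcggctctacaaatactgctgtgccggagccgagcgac
Tcf3 chr10:80433648-80433885, minus strand: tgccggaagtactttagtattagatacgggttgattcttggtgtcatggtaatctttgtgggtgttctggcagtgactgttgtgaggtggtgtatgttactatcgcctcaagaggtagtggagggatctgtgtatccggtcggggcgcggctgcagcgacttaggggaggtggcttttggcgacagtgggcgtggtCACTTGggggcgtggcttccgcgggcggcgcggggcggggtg
Tcf12 chr9:72111872-72112069, minus strand: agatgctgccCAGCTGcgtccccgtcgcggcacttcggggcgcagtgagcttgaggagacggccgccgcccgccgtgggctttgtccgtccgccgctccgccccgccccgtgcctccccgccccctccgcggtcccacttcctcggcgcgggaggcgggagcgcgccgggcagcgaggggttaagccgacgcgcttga

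The word CANNTG reads the same on both strands, so 1 search covers both. It occurred in 1 place in the window of Id2, starting 196 bases before the end of the window, in 1 place for Tcf3 (42 bases) and in 1 place for Tcf12 (188 bases). It did not occur in the window of Id4. Of 32851 RefSeq upstream windows, 66.2% hold an E-box within 250 bases, 64.7% within 238 bases, the length shown for Tcf3, and 58.7% within 198 bases, the length shown for Tcf12. The EGR word GCGTGGGCG, in 0.536% of windows of 250 bases, and the TATA word TATAAA, in 12.4%, were found on neither strand of any of the 4. The Id4 window held 35 CpG and was 75.6% G or C, the Id2 window held 18 CpG and was 62.8% G or C, and the median window of 250 bases held 6 CpG. Of the shorter windows, that of Tcf12 held 31 CpG and was 76.8% G or C, and that of Tcf3 held 17 CpG and was 58.4% G or C. These are descriptions of the letters, and binding was not measured. The RefSeq window of Id3 and those of 2 further starts of Tcf12 lie inside the genes as the files annotate them and are not shown. Windows of Id1 and Tcf4 are not shown either.

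With the gene lengths of the files, the order of the means was Tcf3, Id1, Id3, Id2, Tcf12, Tcf4 and Id4, but Tcf12 moved above Id genes with other lengths. The order held in every library for all 21 pairs, of which 6 set a member against the undetected Id4. Differences are given as log2(TPM + 0.1) of one gene minus that of the other within a library. Tcf3 exceeded Id1 by 0.82, 1.05, 0.45 and 0.92 in replicates 1 to 4, a mean of 0.81 ± 0.26 (SD, n = 4). The ranges of these neighbours in TPM did not overlap, although replicate 3 brought them within 0.45 of each other. Id1 exceeded Id3 by 1.21 ± 0.19, with ranges that did not overlap.

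Id3 exceeded Id2 by 0.47, 0.06, 0.05 and 0.25 in replicates 1 to 4, a mean of 0.21 ± 0.19 (SD, n = 4). These were the only neighbours in the order whose ranges overlapped. Id2 exceeded Tcf12 by 1.03 ± 0.20 with the gene lengths of the files, but fell below it by -0.90 ± 0.20 with the length of the longest coding transcript and by -2.57 ± 0.20 without length normalization. Tcf12 exceeded Tcf4 by 3.75 ± 0.16. Flipping the signs of the differences (exact permutation test, two-sided) gave p = 0.13 for every pair, 2 of 16 flips, also after Benjamini-Hochberg adjustment over the 21 pairs. This is the smallest p that 4 libraries allow, so no pair could pass a threshold of 0.05.

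Summed over each family, Id transcripts were 0.816 to 1.12 times as abundant as E protein transcripts with the gene lengths of the files. The Id sum was 237, 176, 251 and 206 TPM in replicates 1 to 4, and the E protein sum was 253, 215, 224 and 241 TPM. The ratio of Id to E protein TPM was 0.938, 0.816, 1.12 and 0.856, a mean of 0.933 ± 0.136 (SD, n = 4). It was above 1 only in replicate 3. Without length normalization the ratio was 0.236, and with the longest coding transcript 0.643, so that whether the Id genes approached the E protein genes depended on the lengths used.

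With the gene lengths of the files, Id1 made up 55.4% ± 2.64, Id3 23.9% ± 2.13 and Id2 20.7% ± 1.87 of the summed Id TPM (SD, n = 4). Within the E protein family, Tcf3 made up 90.0% ± 1.06, Tcf12 9.37% ± 0.934 and Tcf4 0.664% ± 0.137. The lowest share of Tcf3 in a library was 88.5%. With the longest coding transcript the mean shares were 83.0% for Tcf3, 15.6% for Tcf12 and 1.43% for Tcf4, and with the median coding transcript 63.4%, 31.8% and 4.86% for the same genes. The share of Id1 in the Id sum was 54.1% with the longest and 53.1% with the median transcript. These shares are of RNA, and protein was not measured.

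**Figure D2:**
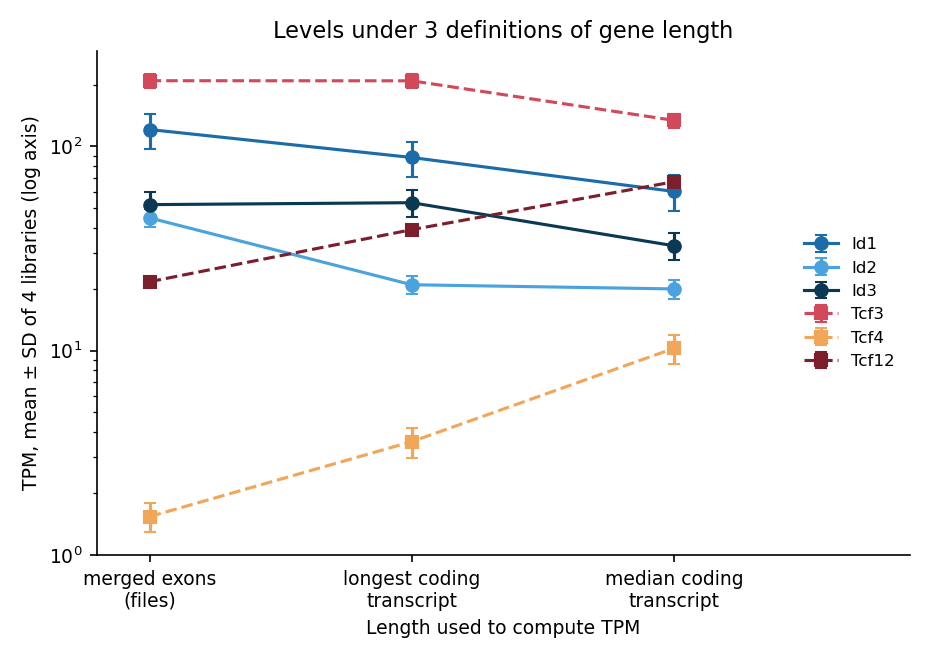
Mean TPM ± SD of 4 libraries on a log axis for the 6 detected members, computed with the merged exon length of the files, the longest coding transcript or the median coding transcript of each gene. Tcf12 lies at 21.7, 39.1 and 67.2 TPM under the 3 lengths and passes Id2 under the second and Id1 and Id3 under the third, while Tcf3 stays highest. Genes are comparable under the same length, since the sum in TPM changes with the lengths.

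The lengths used differ widely for Tcf4 and Tcf12. The length in the files is the union of all annotated exons, which is 27382 bases for Tcf4 and 15529 for Tcf12, against 4039 for Tcf3, 1791 for Id3, 1270 for Id2 and 1160 for Id1. In GENCODE M21, a later release of the same annotation, Tcf4 has 46 coding transcripts, of which the longest is 8577 bases, and the longest of the 11 coding transcripts of Tcf12 is 6299 bases. With the longest coding transcript of every gene, Tcf12 stood at 39.1 ± 1.71 TPM and Tcf4 at 3.58 ± 0.588 TPM (SD, n = 4). Id2 was then at 21.02 ± 2.13 TPM and Tcf3 at 209.6 ± 16.8 TPM. For Id2 that transcript has 1969 bases, more than the 1270 bases over which its reads were counted, which lowers its level in part. The sum in TPM also changes when every gene is given another length. Id1, with 1160 bases under both lengths, went from 121 to 88.3 TPM. Levels are thus comparable between genes under the same length, not across lengths. With the median coding transcript, Tcf12 (67.2 ± 2.70 TPM) was near Id1 (60.2 ± 11.9 TPM), and Tcf4 reached 10.3 ± 1.65 TPM. Which isoforms the cells made was not measured by gene counts. Tcf3 was first, Tcf4 sixth and Id4 last in the order under each of these lengths.

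The spread between libraries differed among the members, and 0 of the 6 tested passed the threshold. With 4 libraries, this does not show that the members were steady. The test asked whether a gene varied more between libraries than others at a like level (ratio of its quasi-likelihood dispersion to the trend in edgeR, Benjamini-Hochberg adjustment over 13625 genes, adjusted p under 0.05). Over all genes it called 1, or 0.00734%, which was Xist, whose highest library was 337 times its lowest. For Id1, the member with the widest range, that ratio was 1.61. In all, 641 genes, or 4.70%, had an unadjusted p under 0.05. Id1 was the only member among these 641, with a dispersion 8.61 times that of the trend (unadjusted p = 0.0111, adjusted p = 0.965). Only 0.844% of tested genes had a higher dispersion ratio. Id3 had a ratio of 4.09 (unadjusted p = 0.0611), and Tcf3 (2.30), Tcf4 (1.82) and Id2 (1.51) lay closer to the trend. Id4 was not tested, since it had no counts.

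Tcf12 was the steadiest member, with a dispersion 0.104 times that of the trend, and 95.3% of tested genes had a higher ratio. Its coefficient of variation was 4.18%, against a median of 7.82% over the 10640 protein-coding genes at 1 TPM or more in every library. The coefficient was 8.25% for Tcf3, 10.1% for Id2, 15.3% for Id3, 16.3% for Tcf4 and 19.5% for Id1. Among those 10640 genes, 91.9% had a lower coefficient than Id1 and 84.4% a lower one than Id3. Counting error was at most 3.83%, for Tcf4, so every detected member had a coefficient above its counting error.

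**Figure D3:**
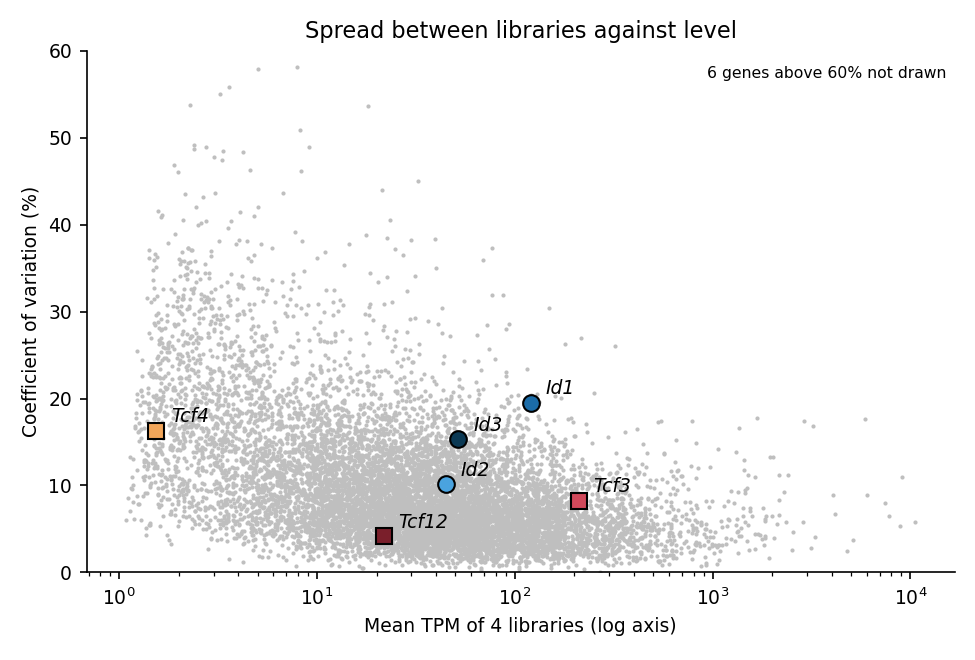
Coefficient of variation over 4 libraries against mean TPM (log axis) for protein-coding genes at 1 TPM or more in every library (grey) and the 6 detected members (circles for Id genes, squares for E protein genes). Id1 at 19.5% and Id3 at 15.3% lie above most genes of their level, and Tcf12 at 4.18% lies low.

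Replicate 2, which stood apart in base composition over all genes, was an extreme for every detected member. The share of all genes with an extreme there was not counted, so this is not a result about the members. There, Id1, Id3, Id2 and Tcf3 were at their lowest, and Tcf12 and Tcf4 at their highest. As log2 deviations from each gene's mean, the values in replicate 2 were -0.38 for Id1, -0.26 for Id3, -0.12 for Id2 and -0.14 for Tcf3, but 0.08 for Tcf12 and 0.26 for Tcf4. GC content was taken from the longest coding transcript in GENCODE M21, not from the counted exons. It was 54.7% for Id1, 55.6% for Id3, 45.1% for Id2 and 61.0% for Tcf3, and 44.4% for Tcf12 and 40.9% for Tcf4. For Id2, replicate 4 was nearly as low, at -0.09.

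The dependence of each library on that GC content and on the gene length of the files was also fitted and removed, using the 10640 protein-coding genes. The deviation of Tcf4 in replicate 2 was then 0.03, that of Tcf3 -0.06 and that of Tcf12 -0.07. For the Id genes it was -0.29 for Id1, -0.19 for Id3 and -0.17 for Id2. Replicate 2 was thus lowest for Id1, Id2, Id3 and Tcf3 with the trend in place and with it removed. Tcf12 was highest there as measured and lowest with the trend removed, and Tcf4 was highest in replicate 4 with the trend removed. What set the levels in replicate 2 was not tested. Id1 and Id2 were highest in replicate 3 both ways. With the trend removed, the coefficient of variation fell to 3.33% for Tcf12, 4.61% for Tcf3 and 9.36% for Tcf4. It fell to 12.4% for Id3 and 16.8% for Id1, but rose from 10.1% to 11.8% for Id2. Without replicate 2, the mean of Id1 was 131 ± 16.4 TPM, that of Id3 54.9 ± 6.37 TPM and that of Id2 45.9 ± 4.67 TPM (SD, n = 3).

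**Figure D4:**
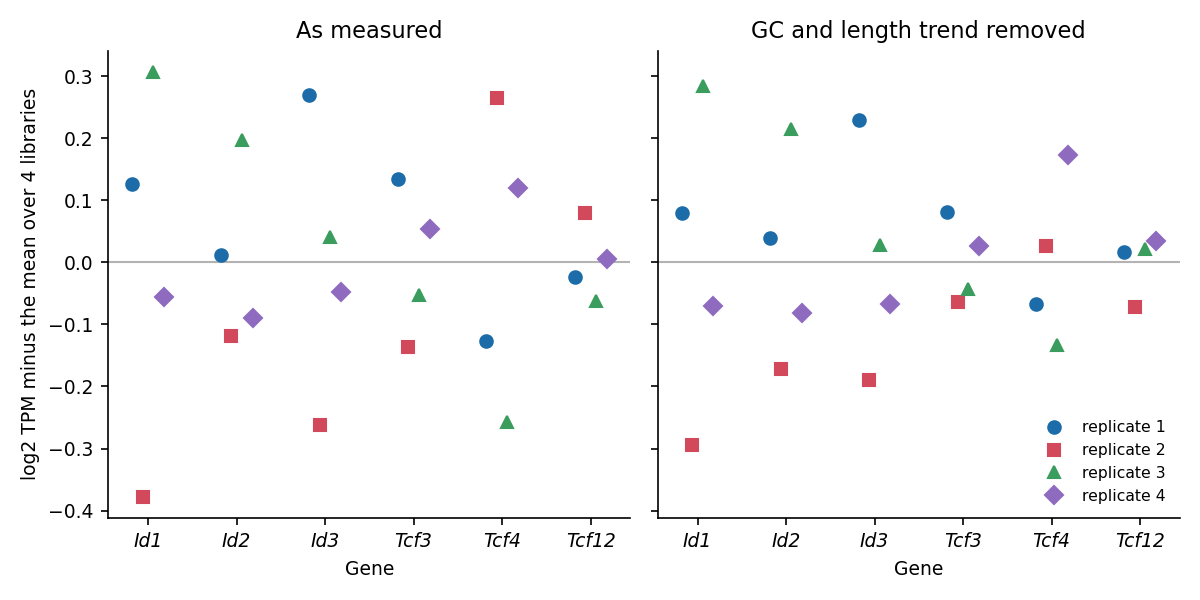
Log2 TPM of each detected member minus its mean over 4 libraries, as measured (left) and with the fitted dependence on GC content and gene length taken out (right), with 1 symbol per library. Replicate 2 (squares) lies lowest for Id1, Id2, Id3 and Tcf3 in both panels, and for Tcf12 it lies highest in the left panel at 0.08 and lowest in the right panel at -0.07. For Tcf4 its deviation is 0.26 in the left and 0.03 in the right panel.

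Genes with the most similar profile were sought among the 10640 protein-coding genes by the root mean square difference of log2 TPM, centred on each gene's mean over the 4 libraries. With 4 libraries and so many genes, close matches are plentiful, and they are given as description. Nearest to Id1 was Ccdc116 (difference 0.00675), at 7.60, 5.35, 8.60 and 6.77 TPM in replicates 1 to 4. Dnajc17 and Wdr89 came next. Nearest to Id3 was Lif, which encodes a cytokine (0.0187), at 240.2, 165, 210 and 191 TPM, followed by Zfp750 and Ier5l. Nearest to Id2 were the sugar transporter gene Slc2a8 (0.0121), Txnip (0.0128) and Tctn3. Tcf3 was nearest to Pla2g6, Prdx5 and Ahdc1, all within 0.00789. Tcf12 was nearest to Depdc1b, Washc5 and Zfp109, and Tcf4 to Tmem156, Insig2 and Steap3.

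Partners and cofactors of E proteins were present in part. Of 15 such genes, 7 reached 1 TPM in every library and 4 had 0 counts, and the median of their mean levels was 0.362 TPM. Over all 21764 protein-coding genes 48.9% reached 1 TPM in every library, and the median was 1.04 TPM. Bhlhe40, a helix-loop-helix repressor induced on T cell activation, was highest at 417 ± 47.3 TPM (SD, n = 4). Ldb1, the adaptor that joins LIM proteins to complexes with E proteins, was at 293 ± 8.57 TPM. Lmo2, the only LIM protein gene in this list, was at 0.362 ± 0.146 TPM, and other LIM protein genes were not in the list.

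Among tissue-restricted partners, Lyl1 was at 9.58 ± 0.241 TPM and Tal2 at 5.88 ± 1.12 TPM (SD, n = 4). Tal1, their relative known from blood stem cells and T cell leukaemia, had 25, 0, 1 and 10 counts in replicates 1 to 4. Ascl2, which marks follicular helper T cells, had 5 counts in replicate 3 and 0 in the others, and Msc, Cbfa2t3 and Runx1t1 were among the genes with 0 counts in all. The histone acetyltransferase genes Ep300 (36.2 ± 1.97 TPM) and Crebbp (21.003 ± 1.47 TPM), whose products E proteins recruit, and the corepressor gene Cbfa2t2 (18.3 ± 0.991 TPM) were expressed. Another repressor of E-boxes, Zeb1, stood at 28.7 ± 2.36 TPM, near Tcf12, while Snai2 was at 0.192 ± 0.0513 TPM and 3 of the 5 genes of that list reached 1 TPM in every library.

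Genes that act upstream of Id genes reached 1 TPM in every library in 9 of 11 cases, with a median of 18.7 TPM. The antigen receptor-induced factors Egr3 (334 ± 18.2 TPM), Egr1 (189.8 ± 3.82 TPM) and Egr2 (147 ± 6.14 TPM) were the most abundant (SD, n = 4). The shared mediator Smad4 was at 71.7 ± 6.99 TPM. Of the receptors for bone morphogenetic proteins, Bmpr2 was at 24.9 ± 3.77 TPM, Acvr1 at 18.7 ± 1.15 TPM and Bmpr1a at 15.3 ± 1.43 TPM, and Bmpr1b had 0 counts. Of the Smads that these receptors phosphorylate, Smad5 was at 11.7 ± 1.38 TPM and Smad1 at 5.75 ± 0.335 TPM, and Smad9 had 6 counts in all.

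All 5 genes for turnover of Id and E proteins reached 1 TPM in every library, with a median of 126 TPM. Usp1, which removes ubiquitin from Id proteins, was at 152 ± 19.4 TPM, and its activating partner Wdr48 at 44.4 ± 1.61 TPM (SD, n = 4). Fzr1, the activator of the ubiquitin ligase that marks Id proteins for destruction, was at 126 ± 9.03 TPM. Stub1 (169 ± 6.59 TPM) and Skp2 (14.2 ± 1.12 TPM), both tied to ubiquitin-dependent loss of E proteins, were the highest and lowest of the list.

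Of 14 genes reported as targets of E proteins in thymocytes or T cells, 9 reached 1 TPM in every library, with a median of 32.5 TPM. The coreceptor gene Cd4 was highest at 656 ± 16.2 TPM, followed by the cytokine signal inhibitor Socs1 at 409 ± 40.9 TPM (SD, n = 4). Foxo1 (78.4 ± 5.70 TPM), Notch1 (57.4 ± 7.82 TPM), Socs3 (36.6 ± 1.37 TPM), Gfi1 (36.4 ± 10.5 TPM) and Cxcr5 (28.6 ± 5.97 TPM) also lay above 10 TPM. The early thymocyte targets were at or near 0. Rag2 had 0 counts, Ptcra, the invariant chain of the precursor receptor, had 6 counts in replicate 2 and 0 in the others, and Rag1 was at 0.157 ± 0.105 TPM.

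Of the 54 genes in these lists 42 were tested for spread between libraries, and 0 passed the threshold (edgeR quasi-likelihood dispersion test). Over all 13625 genes tested, 1 passed, or 0.00734%. At an unadjusted p under 0.05 there were 4 of the 42, against 641 of the 13625, or 4.70%. The 4 were Gfi1, Notch1, Cxcr5 and Bhlhe40. The median dispersion over the trend was 0.834 for the 42 genes and 0.878 for all 13625. Gfi1, which encodes a transcriptional repressor, had 32.1, 49.8, 25.1 and 38.5 TPM in replicates 1 to 4, highest in replicate 2. Notch1, at 65.8, 48.3, 61.6 and 54.0 TPM, and Bhlhe40, at 466, 366, 448 and 389 TPM, were lowest in replicate 2. Cxcr5 had 24.8, 32.8, 22.4 and 34.6 TPM and was highest in replicate 4.

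**Figure D5:**
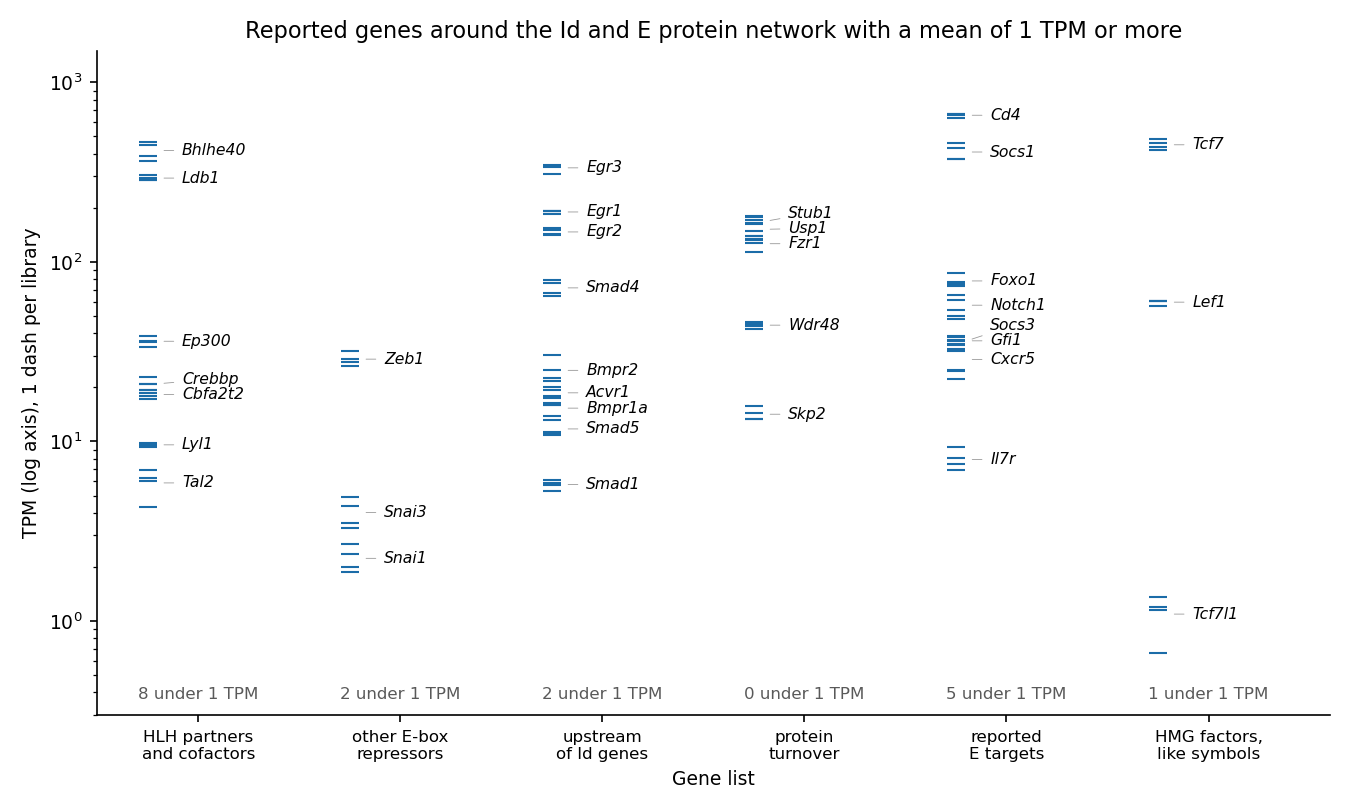
TPM on a log axis, with 1 dash per library, for the genes reported here with a mean of 1 TPM or more in 6 lists around the Id and E protein network. The number of genes under 1 TPM stands below each list, and Cd4 at 656 TPM, Tcf7 at 449 TPM, Bhlhe40 at 417 TPM and Socs1 at 409 TPM have the highest means.

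Symbols in this family are easily confused with those of the high mobility group factors of the Wnt pathway, which are sometimes called by the same names. Tcf7 was at 449 ± 26.2 TPM and Lef1 at 59.7 ± 1.96 TPM (SD, n = 4). Tcf7l1, which shares an older name with Tcf3, was at 1.09 ± 0.299 TPM, and Tcf7l2, which shares one with Tcf4, at 0.234 ± 0.0789 TPM. The levels given for Tcf3 and Tcf4 are those of the helix-loop-helix genes, matched by gene identifier.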

How the data were processed

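The authors deposited raw fragment counts per gene and gene lengths for each of 4 libraries, made with featureCounts 1.4.6-p4 (paired, both ends mapped, reverse-stranded setting 2, exons grouped by gene) against GENCODE M13 annotation of mm10. These steps are stated per the file headers. No source used here gives the aligner's version. The labels say total RNA-seq but link a poly(A)+ protocol. Of 50600 identifiers, 50376 matched a symbol without the version. Here TPM was computed from the counts and the deposited merged exon lengths. Tests were exact sign-flip tests over libraries and an intercept-only edgeR 4.0.16 quasi-likelihood fit (TMM, filterByExpr, robust prior, R 4.3.3), tested on simulated data. No 2 libraries agreed within sampling noise (chi-square per degree of freedom 16.9 or more). Named genes are the members, each list's highest and lowest gene, list genes at 10 TPM or more, markers, and the 3 nearest profiles per member, except some list genes that count in their lists but are not reported by name here. Lyl1, Tal2, Tal1, Ascl2, Lmo2, Smad1, Smad9, Ptcra, Rag1, Tcf7l1 and the genes at 0 counts were added after their values were seen. The members and lists were chosen with earlier results of these data known. Alternatives were other pseudocounts, scalings, filters and lengths, DESeq2 1.42.0, limma 3.58.1 and leaving out each replicate. Counting errors and floors cover counting error only. PCR copies were not marked in the sources used here.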

Additional observations from a re-analysis of the deposited data

Results flagged for a closer look

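A library stood far from the other 3 for 4 of 72 values examined, by the gap to the nearest library divided by the whole range, and chance gives about 1 in 20. Egr1 was at 184 TPM in replicate 3 and 191 to 192 TPM in the others. Lef1 was at 56.8 TPM in replicate 3 and 60.4 to 60.9 TPM in the others. Bmpr1a was at 13.2 TPM in replicate 1 and 15.9 to 16.3 TPM in the others. Smad5 was at 13.8 TPM in replicate 2 and 10.8 to 11.2 TPM in the others. None of the 6 detected members, their 15 differences, the family sums or the Id to E protein ratio met this rule.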

How the results depend on the processing

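The ratio of summed Id to E protein TPM (0.933) was 0.236 without length normalization, 0.643 with the longest and 0.534 with the median coding transcript, 0.414 without Id1 and 9.41 without Tcf3. Both transcript lengths, and removal of the GC and length trend, were chosen after seeing the data. Tcf12 changed place. Its difference from Id1 (Id1 minus Tcf12) was -1.29 without length normalization and -0.18 with the median transcript, that from Id3 -1.87 and -1.05, and that from Id2 -2.57 and -1.74, with -0.90 under the longest transcript. The other 18 pairs kept their direction in every alternative, and a pseudocount of 1 or leaving out any replicate reversed none of the 21. No member passed the variation test under any setting. The adjusted p of Id1 was lowest, at 0.127, without the filter on low counts. Over all genes the test called 1, but 98 without the filter, 5 with a minimum of 50 counts, 2 without replicate 1 and 18 without replicate 2, and DESeq2 marked 43 as outliers. No paired analysis was possible because there is 1 group. Depth limits Id4, whose floor of 3 counts was 0.0506 TPM in the deepest and 0.120 TPM in the shallowest library. Annotation limits it too, since 1660 bases were counted against 3849 in its coding transcript in GENCODE M21.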
